A study of Mus musculus with 19 samples.

Results

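The replication-dependent histone genes were taken as every gene whose symbol begins with Hist1h, Hist2h, Hist3h or Hist4h in the deposited gene counts. These were 67 of the 16842 genes listed in any of the 3 cell sets of the series. They comprised 6 H1, 18 H2A, 18 H2B, 12 H3 and 13 H4 genes. By symbol, 53 were Hist1 genes on chromosome 13, 10 Hist2 genes on chromosome 3, 3 Hist3 genes on chromosome 11 and 1, Hist4h4, on chromosome 6. Hist1h2al, at chr13:51202727-51203065, lay apart from the other Hist1 genes, at chr13:21715763-23764406. Hist1h2al and Hist3h2bb-ps are annotated as processed pseudogenes. The set of 4-month Cd11b+ cells listed all 67, and each of the 18-month sets listed 64.

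RNA was sequenced from freshly isolated mouse bone-marrow cells in 19 libraries of 6 groups. Myeloid cells positive for Cd11b, the integrin subunit encoded by Itgam, came from 4-month animals (3 mutant and 4 wild-type libraries) and from 18-month animals (3 and 3). LK cells, lineage-negative and c-Kit+ progenitors, came from 18-month animals (3 and 3). MT stands for the mutant and WT for the wild type; the title of the series names mutant ASXL1, a chromatin regulator often mutated in clonal blood disorders. Which allele the animals carried, what drives it and whether replicates are separate animals are not given in the sources used here, so p-values measure only the spread between these samples. All libraries were made from 200 ng of total RNA with a directional kit, and the sources used here do not say whether poly(A) RNA was selected or ribosomal RNA depleted.

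Replication-dependent histone genes supply the histones that package newly copied DNA. H2A, H2B, H3 and H4 form the core of the nucleosome, and H1 binds the linker DNA between nucleosomes. Their mRNAs are made mainly in S phase and, unlike other mRNAs, usually end just past a short 3′ hairpin, the histone stem-loop, instead of in a poly(A) tail. The stem-loop is bound by the protein encoded by Slbp, and cleavage is guided by the U7 small nuclear RNA. Some of these genes, among them Hist1h1c, Hist1h2ac, Hist1h2bc and Hist2h2be, are known also to give polyadenylated transcripts, which do not depend on S phase. A protocol that captures poly(A) tails therefore takes up few replication-dependent histone mRNAs.

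The stem-loop motif, 16 bases long, was found on the transcript strand in the annotated transcripts of 46 of the 67 genes, and in 109 of all 141767 annotated transcripts (0.0769%). In the examples below the stem differs between the H4 genes and the other classes shown, and the loop differs between some genes. They are the genes on which later results turn, read from GENCODE M21 transcripts on the GRCm38 build (mm10). Sequences are written 5′ to 3′ on the gene's strand, with the stem-loop in capitals and 6 flanking bases on each side in lower case. Hist1h1c lies at chr13:23739506-23739533 on the plus strand, Hist1h1e at chr13:23621776-23621803 on the minus strand, Hist1h2ac at chr13:23683471-23683498 on the minus strand and Hist1h3e at chr13:23561897-23561924 on the minus strand. Among the H4 genes, Hist1h4i lies at chr13:22040960-22040987 and Hist1h4a at chr13:23760794-23760821, both on the minus strand, and Hist1h4d at chr13:23581944-23581971 on the plus strand.
Hist1h1c: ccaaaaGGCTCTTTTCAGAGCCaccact
Hist1h1e: cccaaaGGCTCTTTTCAGAGCCacccac
Hist1h2ac: cccaaaGGCTCTTTTCAGAGCCcccact
Hist1h3e: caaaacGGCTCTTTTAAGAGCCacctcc
Hist1h4d: accaaaGGCCCTTTTCAGGGCCactacc
Hist1h4i: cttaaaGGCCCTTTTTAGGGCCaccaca
Hist1h4a: accaaaGGCCCTTCTCAGGGCCgcccac

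The form printed for Hist1h1c was shared by 26 genes of the H1, H2A, H2B and H3 classes, and the form printed for Hist1h3e by 6. The form printed for Hist1h4d was carried by 7 genes, all of them H4, and that of Hist1h4i by 2. The Hist1h4a form was found in no other member. The annotated transcript ended within 100 bases of the stem-loop in 23 genes, ran further but at most 500 bases past it in 11 and ran over 500 bases past it in 12. For Hist1h1c it ran 840 bases past the stem-loop, and for Hist1h2ac 2010 bases.

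Depth was 26251822 to 68260809 gene counts per library. The sorting markers matched the labels: Itgam was at 1478 to 2827 CPM (counts per 1000000 gene counts of the library) in Cd11b+ libraries and 57.5 to 101.4 CPM in LK libraries, and Kit at 50.1 to 114 CPM against 202 to 279.5 CPM. Asxl1 was at 201 to 249 CPM in Cd11b+ cells and 109.7 to 151 CPM in LK cells, which does not check the genotype because the kind of mutation is not given. In each 18-month group, replicates 2 and 3 were closer to each other than either was to replicate 1. In the 4-month set, MT replicate 3 and WT replicate 4 stood apart by sex-linked genes: the Y-linked gene Ddx3y was at 103 and 109 CPM there and at 0 to 0.0369 CPM in the other 5. All 18-month libraries had Ddx3y at 59.5 to 87.5 CPM. Many histone genes are nearly identical: 35 of the 67 shared more than 50% of their 50-base windows with another annotated gene, with a median of 55.0%, so the split of reads between such copies is uncertain. Hist1h2be also overlaps Hist1h1e in the annotation.

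Summed over its genes, the histone family took a far larger part of the 4-month libraries than of the 18-month libraries. It held 13188, 13174, 14137 and 11885 CPM in 4-month WT libraries and 12061, 12033 and 13156 in 4-month MT libraries. In 18-month Cd11b+ cells it held 415, 319.8 and 312 in WT and 441, 434 and 440.4 in MT libraries. In LK cells it held 249, 211 and 213 in WT and 297, 301 and 304 in MT libraries. The 4-month libraries all lay above the 18-month libraries, and in both 18-month sets the 3 MT libraries lay above the 3 WT libraries.

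**Figure D1:**
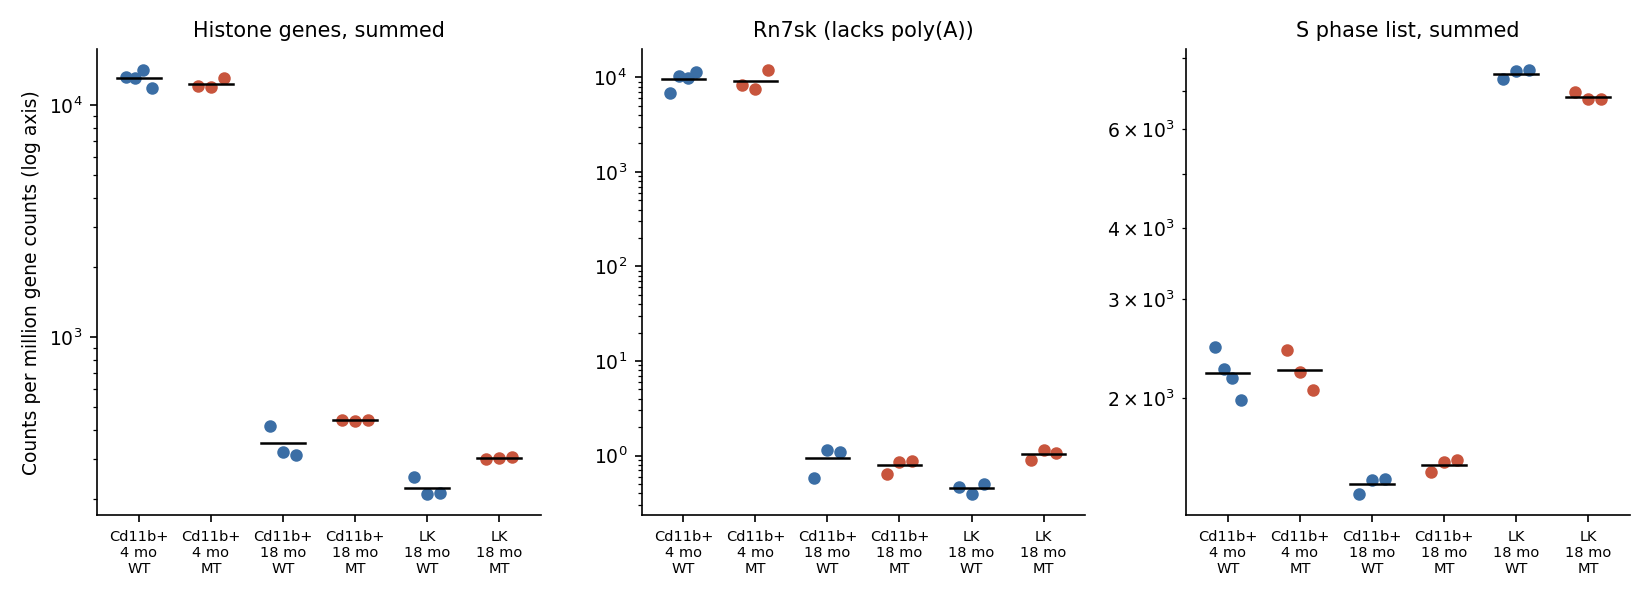
Levels in CPM (log axes) of the summed histone genes, of Rn7sk and of the summed S phase list, with 1 point for each of the 19 libraries in the 6 groups (WT blue, MT red) and a bar at the group mean. Histone genes and Rn7sk are high in the 4-month libraries alone, whereas the S phase list is highest in LK libraries, at 6776 to 7613 CPM.

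Other RNAs that lack a poly(A) tail separated the libraries in the same way. Rn7sk, the 7SK RNA that restrains transcription elongation, was at 6778 to 11840.3 CPM in the 4-month libraries, 0.576 to 1.15 CPM in the 18-month Cd11b+ libraries and 0.391 to 1.15 CPM in the LK libraries. Rpph1, the RNA of ribonuclease P, was at 6082 to 7255, 0.836 to 1.46 and 1.73 to 2.86 CPM in the same order. S phase genes did not follow this order: 25 S phase genes summed to 1987 to 2464 CPM in 4-month Cd11b+, 1352 to 1553 in 18-month Cd11b+ and 6776 to 7613 in LK libraries. Age and the RNA content of the libraries cannot be told apart in these data. The 4-month libraries with Ddx3y, MT replicate 3 and WT replicate 4, were at 13156 and 11885 CPM of histone genes, beside 12033 to 14137 CPM in the other 5. In these sorted populations, fewer cells of a type and less RNA per cell cannot be told apart either.

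Between 18-month and 4-month WT Cd11b+ cells, histone genes of every class were lower at 18 months. Of 63 histone genes tested, 61 were called lower and 1 higher at an adjusted p under 0.05, against 73.1% of all genes called, 36.9% lower and 36.1% higher. The median log2 fold change, fitted with scaling factors for library composition, was -6.84 for the histone genes and -0.02 for all 13719 genes tested (-7.10 and -0.28 with library totals in place of those factors). By class the medians were -6.91 for 5 H1, -5.69 for 16 H2A, -6.04 for 17 H2B, -7.36 for 12 H3 and -8.37 for 13 H4 genes. A list of RNAs, most of which lack a poly(A) tail and which also holds Malat1 and Neat1, had a median of -6.47, with 16 of 18 called lower. The S phase list had a median of -0.29, with 15 of 25 lower and 2 higher, and the G2 and M phase list a median of 0.11, with 3 of 20 lower and 9 higher. Cell-type markers also differed between these sets. At 18 months 7 of 8 B lineage, 8 of 9 erythroid, 8 of 9 stem and progenitor, 7 of 8 T and NK cell and 4 of 5 primary granule genes were called lower, with medians of -3.06, -2.92, -2.76, -2.63 and -1.15, and 1 erythroid and 1 T and NK cell gene were called higher. All 10 mature neutrophil genes and all 5 monocyte and macrophage genes were called higher, by 1.23 to 1.99 and 0.37 to 0.93, and the part of cell make-up in the histone values was not tested. With these factors Slbp itself was higher at 18 months (log2 fold change 0.41, SE 0.05, adjusted p = 4.4e-05).

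The H4 and H3 genes held the extremes. Hist1h4d, the H4 gene with the highest counts in 4-month cells, was at 615, 860.2, 832 and 766 CPM in 4-month WT and 1.28, 1.57 and 1.33 CPM in 18-month WT libraries (log2 fold change -8.86, SE 0.18, adjusted p = 1.1e-10). Hist1h3b was at 252 to 365 CPM in the 4 younger libraries and 0.264 to 0.367 CPM in the 3 older ones (log2 fold change -9.64, SE 0.20). Hist1h4a went from 207 to 232 CPM down to 0.190 to 0.334 CPM (log2 fold change -9.45, SE 0.13). The groups did not overlap for 62 of the 63 genes tested, these 3 included, against 72% of all genes and 48.5% with the 18-month libraries below.

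A minority of genes kept a larger part of their 4-month level. The median histone gene was at 0.742% of its 4-month WT level in 18-month WT Cd11b+ cells. Hist1h1c, encoding the linker histone H1.2, was at 993, 1106, 1129.7 and 868 CPM in 4-month WT and 249, 193 and 192 CPM in 18-month WT libraries, or 20.6% (log2 fold change -2.02, SE 0.13). Hist1h4i kept 30.5%, at 11.2 to 17.2 CPM against 28.9 to 55.0 CPM. Hist2h2be kept 44.1%, at 4.27 to 4.79 CPM against 9.18 to 12.2 CPM, and Hist2h3c1 also kept 44.1%. Hist3h2a kept 9.36%, Hist1h2bc 9.04% and Hist1h2ac 8.93%. Among genes with a mean under 1 CPM at 18 months, Hist2h2aa1 kept 25.3%, Hist1h2bq 21.4% and Hist2h3c2 12.3%, and Hist1h2ap and Hist1h2ao were at 133% and 148%. The Hist1h2bq value rests on 18-month WT replicate 1, with 31 counts there and 0 in WT replicates 2 and 3. Hist1h2ap had only 2 to 5 counts in each 4-month WT library. All 4 genes of the list known for polyadenylated forms, Hist1h1c, Hist1h2ac, Hist1h2bc and Hist2h2be, were thus above the median; that list was written with earlier results of these data known.

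**Figure D2:**
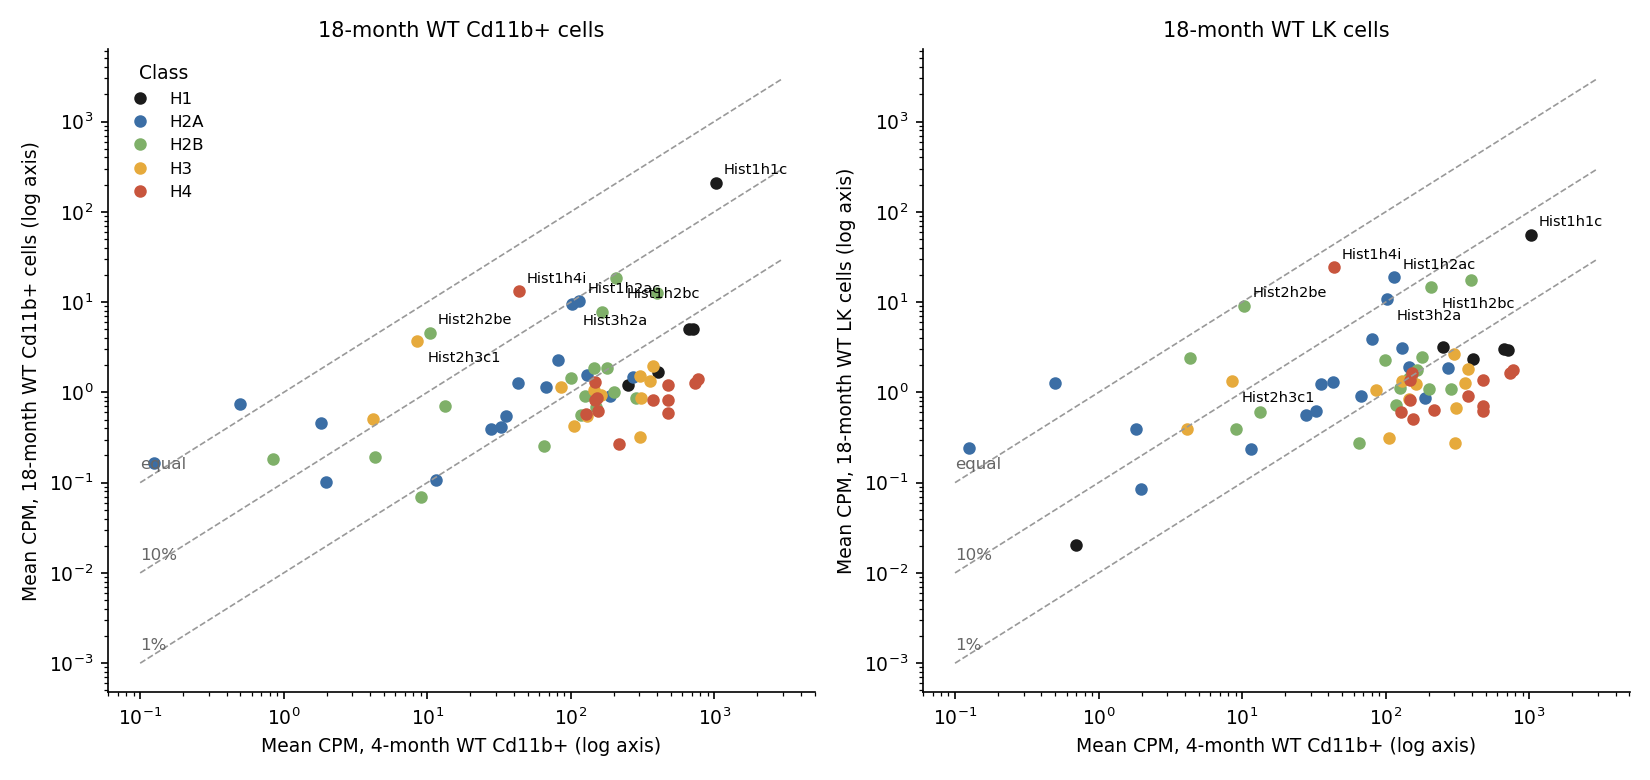
Mean CPM of each histone gene in 18-month WT Cd11b+ cells (left) and 18-month WT LK cells (right) against its mean in 4-month WT Cd11b+ cells, on log axes, coloured by class. Dashed lines mark equal levels, 10% and 1%; the median gene is at 0.742% on the left, and Hist1h4i and Hist2h2be lie above the 10% line in both panels, Hist1h1c only on the left.

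The only gene called higher at 18 months was Hist1h2ao (0.821, 0.573 and 0.820 CPM against 0.365 to 0.774 CPM; log2 fold change 0.85, SE 0.31, adjusted p = 0.0298). Its groups overlapped, it is one of the genes with near-identical copies, and the call was lost with library totals in place of scaling factors, with replicate numbers as a block and without 4-month WT replicate 2, 3 or 4, or 18-month WT replicate 1 or 3. Annotated ends beyond the stem-loop did not sort the genes cleanly. The median 18-month share was 0.729% where the transcript ended within 100 bases of the stem-loop, 1.66% where it ran further but at most 500 bases past it, 1.01% where it ran over 500 bases past it and 0.736% where no stem-loop was annotated. In each of these 4 groups at least 3 genes kept over 4%.

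The make-up of the histone transcripts differed between the sets. H4 genes held 32.0% to 34.2% of the histone counts of a library in 4-month cells, 6.63% to 7.12% in 18-month Cd11b+ cells and 16.01% to 18.5% in LK cells. H1 genes held 21.7% to 25.6%, 63.6% to 65.3% and 28.0% to 31.8%. Hist1h1c alone held 7.31% to 8.40%, 59.6% to 61.5% and 22.0% to 27.0%. H2A genes held 8.87% to 10.6% of the histone counts in both Cd11b+ sets and 20.4% to 24.3% in LK cells. By the mean of WT libraries, the member with the highest counts differed by set in 4 of the 5 classes. Hist1h1c led the H1 class in every library. Among H2A genes Hist1h2ak led in 4-month WT cells (222 to 306 CPM, against 1.17 to 1.78 CPM at 18 months) and Hist1h2ac in both 18-month sets. In 18-month Cd11b+ cells that mean rests on WT replicate 1 (14.4 CPM): in WT replicates 2 and 3 Hist3h2a (10.5 and 9.84 CPM) lay above Hist1h2ac (8.33 and 7.98 CPM). Among H2B genes Hist1h2bg led at 4 months (367 to 412 CPM) and in LK cells (15.2 to 19.5 CPM in WT), except in LK MT replicate 1, where Hist1h2bc was the highest, and Hist1h2bc led in 18-month Cd11b+ cells (16.8 to 20.4 CPM). Among H3 genes Hist1h3e led at 4 months (329 to 418 CPM), Hist2h3c1 in 18-month Cd11b+ cells (3.48 to 4.11 CPM) and Hist1h3c in LK WT cells (2.35 to 3.23 CPM), while in LK MT replicates 1 and 2 Hist1h3e was the highest. Among H4 genes Hist1h4d led at 4 months, except in WT replicate 1 and MT replicate 2, where Hist1h4h did, and Hist1h4i led in both 18-month sets. The leading H3 and H4 genes of 18-month cells, Hist2h3c1 and Hist1h4i, were thus minor members at 4 months. Per kilobase of RefSeq transcript, the highest WT levels were those of Hist1h4d (1911 CPM per kb) and Hist1h4h (1697 CPM per kb) in 4-month cells. In 18-month Cd11b+ cells Hist1h1c stood first with 291 CPM per kb and Hist1h4i second with 32.8 CPM per kb. In LK cells the same genes stood first and second, with 77.2 and 60.4 CPM per kb. These ranks depend on the lengths used. Merged exon lengths in GENCODE were 1138 bases for Hist1h4d, 470 for Hist1h4h, 727 for Hist1h4i and 618 for Hist1h2bg. With them Hist1h4h lay above Hist1h4d in 4-month WT cells, and Hist1h2bg above Hist1h4i in 18-month WT Cd11b+ cells.

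Promoter sequences are shown for a gene near the bottom and 2 near the top of the 18-month shares, since the whole family differed together between these sets. They are the 120 bases before the start in RefSeq (GRCm38.p6), with TATAAA and CCAAT in capitals: Hist1h3b at chr13:23752225-23752344 on the plus strand, Hist1h1c at chr13:23738687-23738806 on the plus strand and Hist1h4i at chr13:22041363-22041482 on the minus strand.
Hist1h3b: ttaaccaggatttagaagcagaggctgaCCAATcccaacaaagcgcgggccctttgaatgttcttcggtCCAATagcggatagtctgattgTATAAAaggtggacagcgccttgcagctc
Hist1h1c: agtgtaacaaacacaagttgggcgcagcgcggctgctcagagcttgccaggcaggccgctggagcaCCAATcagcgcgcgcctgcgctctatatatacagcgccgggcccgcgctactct
Hist1h4i: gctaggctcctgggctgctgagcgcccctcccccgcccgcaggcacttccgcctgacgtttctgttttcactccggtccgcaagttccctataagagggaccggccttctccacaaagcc

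Over the window from 250 bases before to 50 after the start, on both strands, TATAAA was found in 55.9% of the 59 histone promoters matched and in 13.6% of all 32817 promoters. CCAAT was found in 84.7% against 37.4%, and both in 45.8% against 5.31%. The motifs can share 1 base, the last of CCAAT and the first of TATAAA, and a match describes the letters only. Of the 3 printed stretches, that of Hist1h3b holds both, that of Hist1h1c holds CCAAT alone and that of Hist1h4i holds neither. Over the wider window Hist1h4i did hold TATAAA, outside the printed bases, and Hist1h1c did not.

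LK cells and Cd11b+ cells of 18-month WT animals differed strongly in their S phase genes and less uniformly in their histone genes. All 25 S phase genes were called higher in LK cells (median 1.87 on the log2 scale); Mcm2, a subunit of the replicative helicase, was higher by 2.38 (SE 0.05, adjusted p = 1.2e-09). Of 60 histone genes tested, 5 were called higher and 24 lower in LK cells, against 86.8% of all genes called, 45.1% higher and 41.7% lower. The median log2 fold change was -0.50 for histone genes and 0.08 for all genes. This balance depends on the scaling: with library totals in place of scaling factors the median of all genes moved to 0.81, the histone median to 0.23, and 17 histone genes were called higher and 6 lower, against 61.8% and 27.3% of all genes. In both scalings 11 genes were called, each in the same direction. The groups did not overlap for 26 of the 60 histone genes, against 90% of all genes.

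The lower genes of both scalings included 3 linker histone genes. Hist1h1c was at 56.3, 54.0 and 57.6 CPM in LK WT and 249, 193 and 192 CPM in Cd11b+ WT libraries (log2 fold change -2.65, SE 0.11, adjusted p = 4.2e-08; -1.92 with library totals). Hist1h1e was at 2.67 to 3.10 CPM against 4.44 to 5.69 CPM (-1.48 and -0.75), and Hist1h1d changed by -1.46 and -0.73. Among core histones, Hist1h2be changed by -2.88 and -2.15, Hist2h3c1 by -2.20 and -1.47 and Hist1h2bc by -1.09 and -0.36. None of these overlapped between the groups. Hist1h2be and Hist1h1e overlap in the annotation, so their reads may be shared.

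The higher genes of both scalings were Hist3h2ba, Hist3h2bb-ps, Hist1h1a, Hist1h3a and Hist2h2be. Hist3h2ba, an H2B gene of chromosome 11, was at 2.22, 2.54 and 2.39 CPM in LK WT and 0.384, 0.0954 and 0.103 CPM in Cd11b+ WT libraries (log2 fold change 2.85, SE 0.43, adjusted p = 2.5e-04). Its neighbour Hist3h2bb-ps was at 0.314 to 0.461 CPM against 0.0524 to 0.0954 CPM (1.84, SE 0.40). Hist1h1a was at 2.79 to 3.92 CPM against 1.10 to 1.36 CPM (0.68, SE 0.19). Hist2h2be, an H2B gene with polyadenylated forms, was at 9.08 to 9.18 CPM against 4.27 to 4.79 CPM (0.26, SE 0.09, adjusted p = 0.0261). Hist1h4i and Hist1h2ac, at 22.8 to 26.7 and 15.4 to 25.3 CPM in LK cells, were called higher with library totals only (0.88 and 0.89). The number called higher was 3 without LK WT replicate 1, 2 or 3 or Cd11b+ WT replicate 2, and 8 without Cd11b+ WT replicate 1. Shares of all genes called higher in these fits are not given here.

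Histone chaperone and histone mRNA processing genes were mostly higher in LK cells, as S phase genes were, with the scaling factors used. Of 16 chaperone genes 13 were called higher in LK cells and 3 lower, with a median of 1.58; Chaf1b, a subunit of the assembly factor CAF-1, was higher by 2.19 (SE 0.06). Of 18 processing genes 13 were called higher and 1 lower, with a median of 0.62, and Slbp was higher by 0.66 (SE 0.05, adjusted p = 1.5e-06). Replacement histone genes, such as H2afv and H3f3b, were split, with 4 of 11 higher and 5 lower. The list of RNAs mostly without a poly(A) tail was also split, with 4 of 14 higher and 5 lower.

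In LK cells, histone genes of all 5 classes were among those higher in MT than in WT libraries. Of 62 tested, 19 were called higher and 0 lower, against 29.8% of all 14113 genes called, 13.9% higher and 15.9% lower. The histone share called, 30.6%, was close to that of all genes, and its calls all had the same direction. The fitted change was above 0 for 61 of the 62, with a median of 0.55 against 0.02 over all genes. Of the members, 4 of 5 H1, 4 of 16 H2A, 2 of 16 H2B, 3 of 12 H3 and 6 of 13 H4 genes were called. The groups did not overlap for 35 of the 62 histone genes, against 46.2% of all genes in either direction and 19.8% with MT above WT. The ratio of MT to WT mean summed level was 1.34. Without the 4 genes known for polyadenylated forms, the sum was 172, 170.0 and 172 CPM in MT and 143, 118 and 115 CPM in WT libraries, again without overlap.

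**Figure D3:**
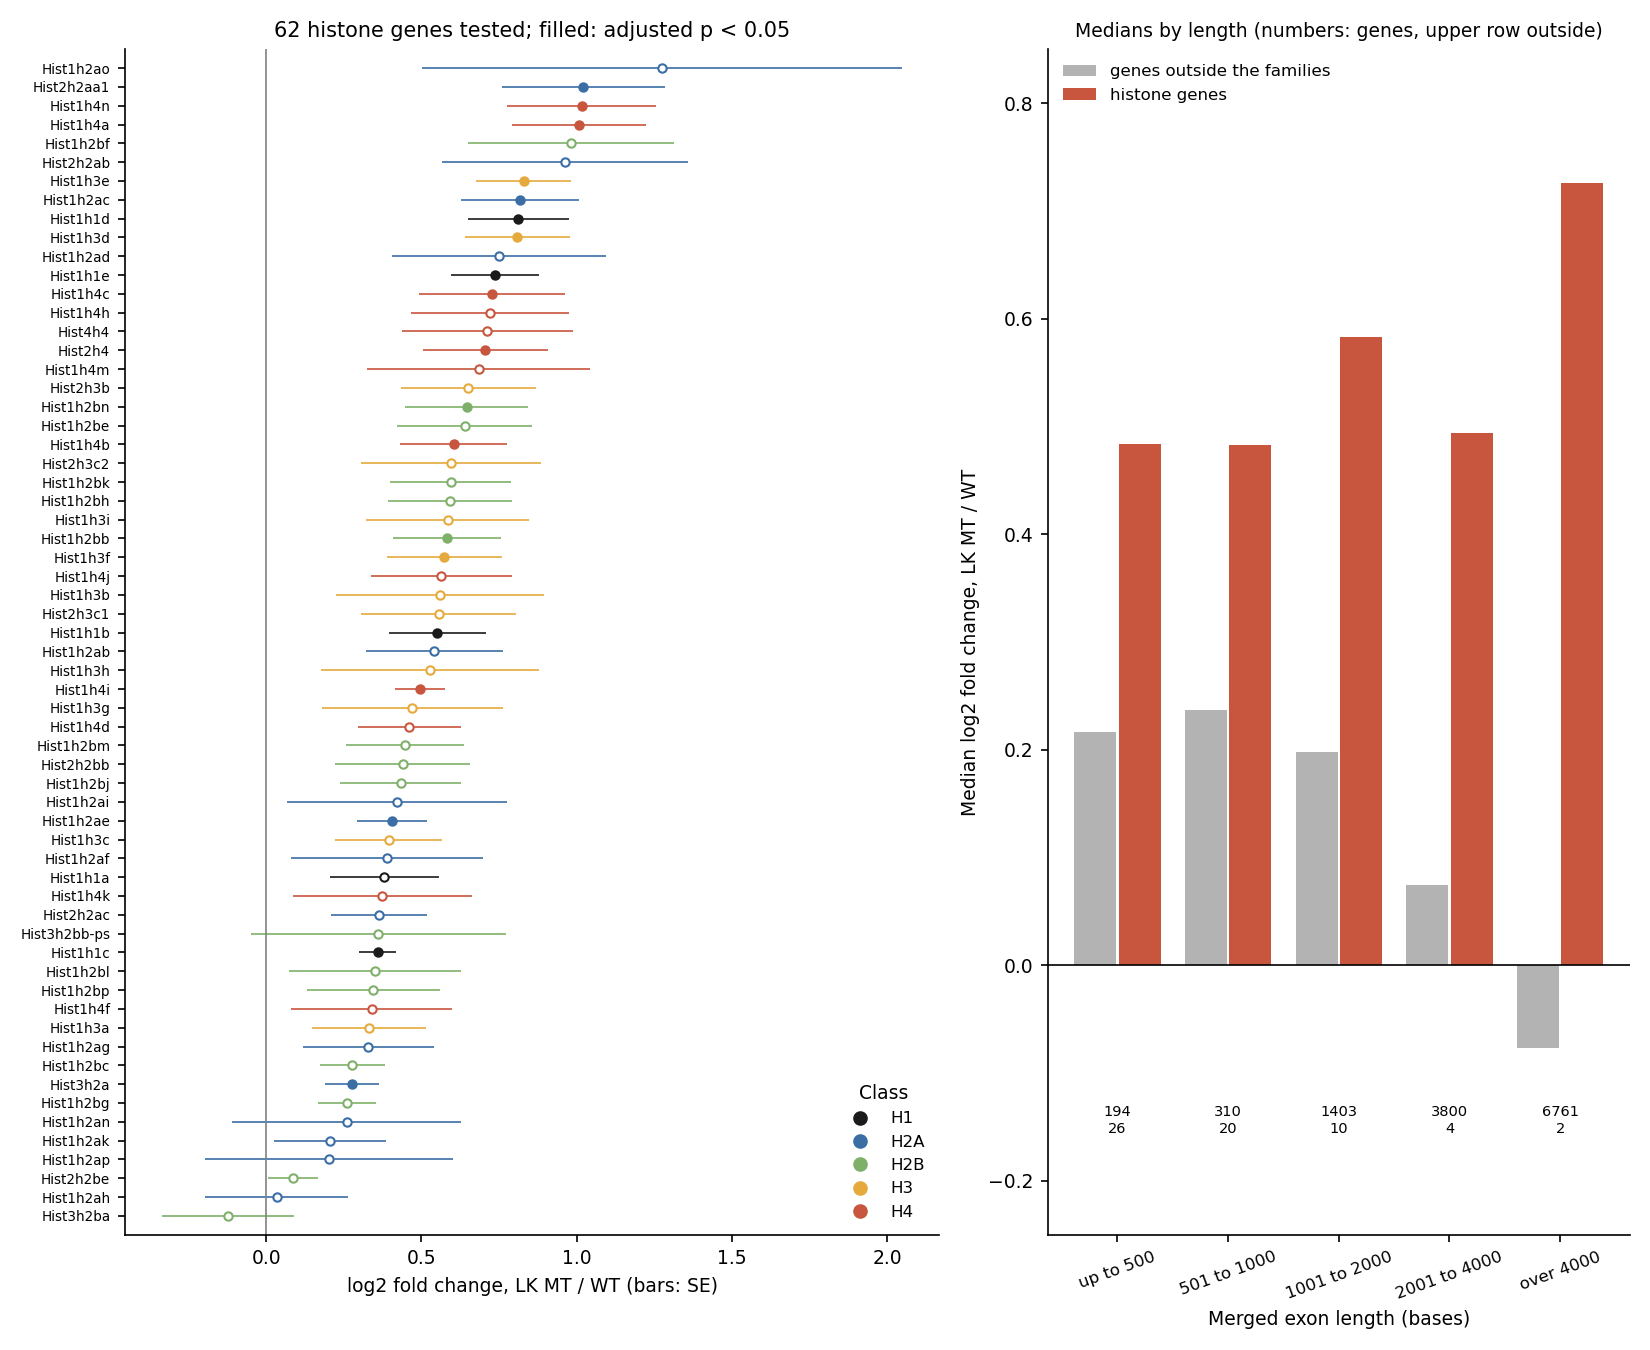
Left, log2 fold change of MT against WT in LK cells for the 62 histone genes tested, with SE bars, coloured by class and filled where the adjusted p was under 0.05. Right, median log2 fold change of genes outside the family (grey) and of histone genes (red) by annotated merged exon length. The number of genes is under each pair. The histone medians lie at 0.48 to 0.73 in all 5 groups of annotated length, above those of other genes.

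Among the linker histones, Hist1h1c was at 65.3, 72.7 and 72.0 CPM in MT and 56.3, 54.0 and 57.6 CPM in WT libraries (log2 fold change 0.36, SE 0.06, adjusted p = 0.0076). Hist1h1e was at 4.97, 5.36 and 4.09 CPM against 3.10, 3.05 and 2.67 CPM (0.74, SE 0.14, adjusted p = 0.010). Every MT library lay above every WT library for both. Hist1h1d rose by 0.81 (SE 0.16) and Hist1h1b by 0.55 (SE 0.16).

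Among the core histones, the H4 gene Hist1h4i was at 31.6, 33.3 and 35.6 CPM in MT and 26.7, 23.6 and 22.8 CPM in WT libraries (0.49, SE 0.08, adjusted p = 0.0073), the smallest p of the family. Hist1h4a was at 1.24, 1.30 and 1.30 CPM against 0.797, 0.605 and 0.534 CPM (1.01, SE 0.22, adjusted p = 0.013). Hist1h4n rose by 1.02 (SE 0.24). These H4 genes did not overlap between genotypes. The H3 gene Hist1h3e was at 3.39, 3.19 and 2.89 CPM against 2.05, 1.72 and 1.66 CPM (0.83, SE 0.15, adjusted p = 0.0091), and Hist1h3d rose by 0.81 (SE 0.17).

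Hist1h2ac, an H2A gene with polyadenylated forms, was at 30.1, 34.6 and 33.4 CPM in MT and 25.3, 15.4 and 16.1 CPM in WT libraries (0.82, SE 0.19, adjusted p = 0.020). Hist2h2aa1 rose by 1.02 (SE 0.26) and Hist1h2ae by 0.41 (SE 0.11). The remaining called genes were Hist2h4, Hist1h4b, Hist1h4c, Hist1h2bb, Hist1h2bn, Hist1h3f and Hist3h2a, with changes of 0.28 to 0.73. Among the 4 genes of the list with polyadenylated forms, Hist1h1c and Hist1h2ac were called, whereas Hist1h2bc (0.28, adjusted p = 0.080) and Hist2h2be (0.09, adjusted p = 0.45) were not. Hist3h2ba was the gene with a fitted change below 0 (-0.12, adjusted p = 0.69).

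S phase genes did not rise with the histone genes in LK MT cells. Of 25, 1 was called higher and 7 lower, with a median of -0.07; Clspn and Pola1, which act at the replication fork, changed by -0.36 (SE 0.05) and -0.42 (SE 0.08). Of 20 G2 and M phase genes 2 were called higher and 9 lower, and Mki67 was at 1091, 926 and 945 CPM in MT against 1165, 1439 and 1463 CPM in WT libraries. Of 18 processing genes 2 rose and 6 fell, among them Npat, the coactivator of histone gene transcription (-0.38, SE 0.07), and Casp8ap2 (-0.38, SE 0.05). Slbp was at -0.04 (adjusted p = 0.45). Of 16 chaperones 0 rose and 6 fell. The S phase gene called higher was Tyms (0.14), and the G2 and M phase genes were Ube2c (0.23) and Birc5 (0.19). The processing genes that rose were Lsm10 (0.26) and Ncbp2 (0.19). Among genes outside the histone family, 27.1% of those over 4000 bases of merged exons were called lower and 6.58% higher. Of those up to 500 bases, 2.58% were called lower and 11.9% higher. The part of transcript length in these list values was not tested.

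Genes of the list of replacement histones, most of which give ordinary polyadenylated mRNAs, rose in part: 5 of 11 were called higher and 0 lower, with a median of 0.19. They were H2afv (0.26), H2afx (0.23; known to give a stem-loop mRNA as well as a polyadenylated one), H3f3b (0.19), H2afj (0.29) and the centromere histone gene Cenpa (0.11). The list of RNAs mostly without a poly(A) tail also moved with genotype in LK cells. Of 15 tested, 7 were called higher and 0 lower, with a median of 0.40. Malat1 was 1 of the 7 (0.47, adjusted p = 0.0063). Rn7sk was at 0.901, 1.15 and 1.05 CPM in MT and 0.461, 0.391 and 0.502 CPM in WT libraries (1.24, SE 0.23, adjusted p = 0.0092), and Rn45s, the ribosomal RNA precursor, at 722, 1002 and 960.2 CPM against 663, 531 and 522 CPM. The part of RNA content in the histone result was not tested.

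Transcript length moved with genotype too. Among genes outside the family the median change in LK cells was 0.22 up to 500 bases of merged exons, 0.24 above that up to 1000, 0.20 above that up to 2000, 0.07 above that up to 4000 and -0.08 above 4000 bases. Histone genes had medians of 0.48, 0.48, 0.58, 0.49 and 0.73 in the same groups, the last 2 groups holding 4 and 2 histone genes. The 2 over 4000 bases were Hist1h1d (7425) and Hist1h2be (4446). These are annotated lengths, also used to remove the length trend. Whether they match the histone RNA counted was not tested. With the length trend removed, 8 histone genes were called higher, against 20.6% of all genes called and 8.24% called higher. All 8 were among the 19: Hist1h1d, Hist1h1e, Hist1h2ac, Hist1h3d, Hist1h3e, Hist1h4a, Hist1h4i and Hist1h4n; the histone median was then 0.30. Mature neutrophil genes, markers of cells that lineage depletion is meant to remove, summed to 1347, 4485 and 4307 CPM in LK MT and 1192, 616 and 593 in LK WT libraries, against 127842 to 153348 in 18-month Cd11b+ cells. All 10 had a fitted change above 0 and 1 was called. Primary granule genes, made by granulocyte precursors, were higher too: 5 of 5 tested were called, at 17401 to 20292 CPM in MT and 15566 to 16859 in WT libraries for the summed list. Of the other lists, 8 of 8 B lineage genes had a fitted change above 0 (median 0.53), and 1, Cd79b, was called. Of 8 T and NK cell genes 2 (Nkg7 and Gzma) were called higher. Of 9 stem and progenitor genes 2, Kit (-0.26) and Flt3 (-0.59), were called lower and 0 higher. That list had 5 of 9 fitted above 0 and a median of 0.01. Of 10 erythroid genes 2 were called lower and 0 higher, of 6 megakaryocyte genes 1 higher, and of 5 monocyte and macrophage genes 1 higher and 2 lower. The part of these cells in the histone result was not tested.

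Single LK libraries set how many histone genes were called. Leaving out WT replicate 1 raised the number to 34, when 38.8% of all genes were called and 16.8% were called higher. Only 2 were called when WT replicate 2 was dropped and 3 when WT replicate 3 was, when 6.87% and 7.49% of all genes were called. Dropping MT replicate 2 left 3 and dropping MT replicate 3 left 4, beside 6.94% and 8.28% of all genes. Hist1h1c and Hist1h4i were called in each of these fits. With the counts of replicates 2 and 3 of each group summed, 0 were called by edgeR, beside 0.0207% of all genes. In that fit 14 had an unadjusted p under 0.05, and the share of all genes at that level is not given here.

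In 18-month Cd11b+ cells most histone genes were also fitted higher in MT libraries, but no call was made. Of 59 tested, 0 were called, against 0.336% of all 13398 genes (0.127% higher and 0.209% lower). An unadjusted p under 0.05 was found for 13, against 2230 of all genes, and DESeq2 called 3 histone genes. The fitted change was above 0 for 53 of 59, with a median of 0.33 against 0.00 over all genes. The groups did not overlap for 19 of the 59 histone genes, against 22.7% of all genes and 14% with MT above WT. The smallest p was that of Hist1h1e, at 8.13, 7.90 and 7.67 CPM in MT and 5.69, 4.80 and 4.44 CPM in WT libraries (log2 fold change 0.65, SE 0.10, adjusted p = 0.0508). Hist1h1c was at 263, 265 and 264 CPM against 249, 193 and 192 CPM (0.31, adjusted p = 0.18), and Hist1h2ac at 17.1, 15.8 and 15.1 CPM against 14.4, 8.33 and 7.98 CPM (0.63, adjusted p = 0.23).

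For Hist1h1c, Hist1h1e and Hist1h2ac, WT replicate 1 lay nearest to the MT libraries. The same library had 415 histone CPM in all against 319.8 and 312 in WT replicates 2 and 3. Without it 14 histone genes were called higher, among them Hist1h1c, Hist1h1d, Hist1h1e, Hist1h2ac and Hist1h4i, and 13.3% of all genes were called, 6.95% higher. Without MT replicate 1 only Hist1h1e was called, beside 2.29% of all genes. DESeq2 called Hist1h1c, Hist1h1e and Hist1h2ac, and 3.78% of all genes. Hist1h2ao, at 0.762, 0.812 and 8.76 CPM in MT and 0.573 to 0.821 CPM in WT libraries, was high in 1 MT library (adjusted p = 0.44). In this comparison edgeR called 0 of 25 S phase genes, 0 of 20 G2 and M phase genes and 0 of 14 RNAs mostly without a poly(A) tail. Their medians were 0.09, -0.01 and -0.04, and 21, 10 and 7 of them had a fitted change above 0. So had 13 of 18 processing and 12 of 16 chaperone genes. All 10 mature neutrophil genes had a fitted change below 0 (median -0.10), and 0 were called. B lineage genes summed to 128 CPM in MT replicate 1 and 39.1 to 55.9 in the other 5 libraries, and 0 of 8 were called. Erythroid genes summed to 78.3, 173 and 175 CPM in MT and 89.3, 131 and 122 CPM in WT libraries; 9 of 10 had a fitted change above 0 (median 0.89) and 0 were called. All 5 primary granule genes had a fitted change below 0 (median -0.39) and 0 were called, with sums of 1002 to 1215 CPM in MT and 1318 to 1417 CPM in WT libraries. The part of these cells and of S phase in the histone values was not tested.

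**Figure D4:**
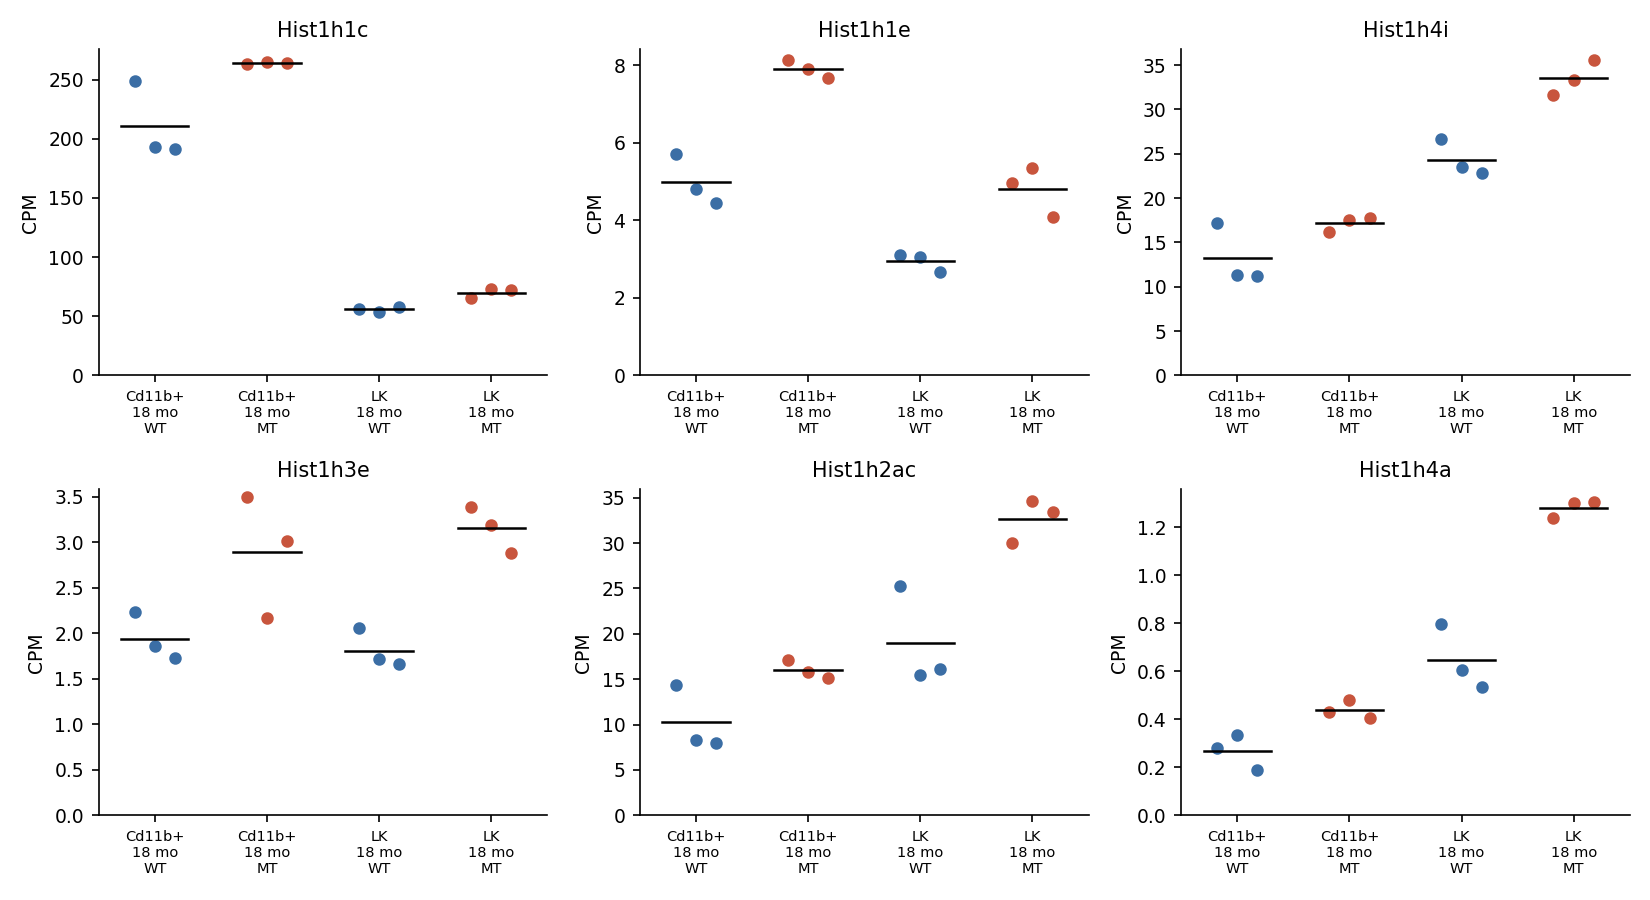
CPM (linear axes from 0) of 6 histone genes in the 18-month libraries, 1 point per library with a bar at the mean of 3 (WT blue, MT red). MT libraries lie above WT libraries in LK cells for all 6 genes. In Cd11b+ cells WT replicate 1, the leftmost WT point, lies nearest to the MT libraries, or among them, for every gene but Hist1h4a.

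In 4-month Cd11b+ cells, where histone RNA was most abundant, no histone gene differed between genotypes at the threshold. Of 66 tested, 0 were called, against 0% of all 13755 genes, and 2 had an unadjusted p under 0.05 (444 over all genes) and DESeq2 called 0 of them. The fitted change was below 0 for 63 of 66, with a median of -0.12 against -0.01 over all genes. Hist2h2be was at 8.55, 8.62 and 7.55 CPM in MT and 12.2, 9.80, 10.3 and 9.18 CPM in WT libraries (-0.38, SE 0.12, adjusted p = 0.999), the only histone gene whose groups did not overlap, against 4.77% of all genes, 0.981% with MT below WT and 3.79% with MT above. Hist1h1c was at 933, 888 and 979 CPM against 868 to 1129.7 CPM (-0.18, SE 0.11). Hist1h4d was at 765, 651 and 811 CPM against 615 to 860.2 CPM (-0.09, SE 0.13). The MT values of both lay within the WT range. Of 20 RNAs of a list mostly without a poly(A) tail, 4 had a fitted change above 0 (median -0.10). The same held for 6 of 25 S phase genes (median -0.02) and 10 of 20 G2 and M phase genes. It held for 0 of 5 primary granule and 0 of 8 B lineage genes, but for 6 of 10 mature neutrophil and 4 of 5 monocyte and macrophage genes. In these lists 0 genes were called. Their part in the histone values was not tested.

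Without MT replicate 3 and WT replicate 4, which stand apart by sex-linked genes, 4 histone genes were called lower in MT, against 0.497% of all genes called and 0.36% called lower, and the median was -0.26. They were Hist1h2ae (-0.36), Hist1h2ag (-0.45), Hist1h2be (-0.30) and Hist1h2bp (-0.58). Hist1h2ag was at 28.2, 27.0 and 38.8 CPM in MT and 35.9, 34.0, 37.9 and 34.4 CPM in WT libraries, with MT replicate 3 the highest of all 7. Leaving out either library alone gave 0 calls and 16 and 14 histone genes with an unadjusted p under 0.05. Shares of all genes at that unadjusted p are not given here.

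**Figure D5:**
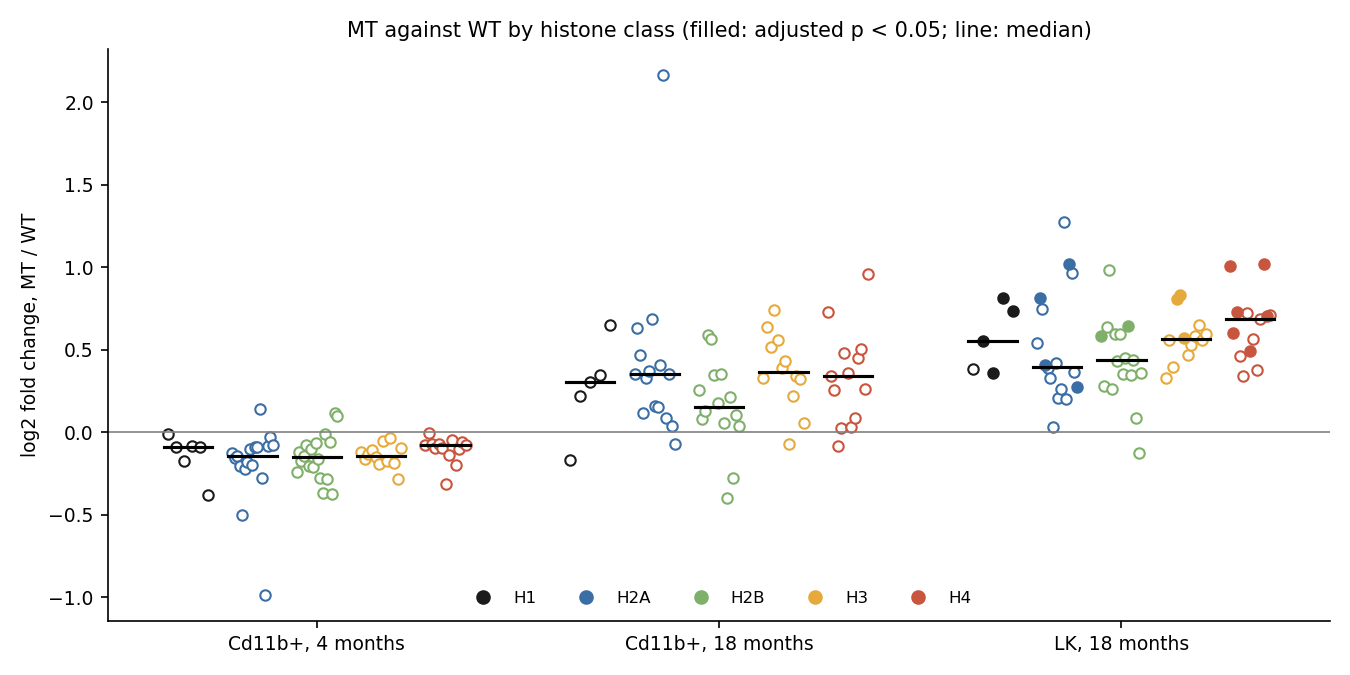
log2 fold change of MT against WT for each histone gene tested in the 3 cell sets, by class, with a bar at the class median; filled points have an adjusted p under 0.05. All 19 filled points are in LK cells; the class medians are -0.15 to -0.08 at 4 months, 0.15 to 0.37 in 18-month Cd11b+ cells and 0.40 to 0.68 in LK cells.

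Whether the genotype difference itself depended on cell type or age was tested with interaction terms. Between LK and Cd11b+ cells at 18 months, 1 of 62 histone genes was called, against 20.7% of all genes (8.79% higher and 12% lower). Only 4 had an unadjusted p under 0.05, against 4956 of all 13996 genes, and the histone median was 0.26. The gene was Hist1h2bm, an H2B gene, at 1.70, 1.38 and 1.42 CPM in LK MT and 1.17, 0.957 and 1.26 CPM in LK WT libraries, and at 0.762, 0.679 and 0.686 CPM in Cd11b+ MT and 1.07, 0.883 and 0.820 CPM in Cd11b+ WT libraries. MT lay above WT in LK cells and below it in Cd11b+ cells, without overlap in either (interaction 0.84, SE 0.26, adjusted p = 0.042). The call was lost with library totals and with the length trend removed, where the histone median was 0.01. The number called was 0 without any one of replicates 2 and 3 of the 4 groups or LK MT replicate 1, 2 without Cd11b+ MT replicate 1 or Cd11b+ WT replicate 1 and 3 without LK WT replicate 1. Shares of all genes called in these fits are not given here.

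Between 18-month and 4-month Cd11b+ cells, 0 of 63 histone genes were called by edgeR, against 0.0214% of all genes. An unadjusted p under 0.05 was found for 22, against 1035 of all 14024 genes. DESeq2 called 2, and the histone median was 0.47 against 0.01 over all genes. The number called was 2 without 18-month WT replicate 1 and 1 without 4-month WT replicate 4. For these fits and for DESeq2 the share of all genes called is not given here.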

How the data were processed

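Gene counts of 19 libraries were used as the authors deposited them: whole-number counts per gene symbol, 1 table per library. STAR, HTSeq, DESeq2 and the build mm10 are named in the submitters' processing notes, without versions or settings; which annotation was counted, whether strand was used and how reads with several matches were treated are not given in the sources used here. The smallest sum of a listed gene over a set was 10 counts in each of the 3 sets. Deposited counts of transposable elements (19 tables) were not used. Groups came from the sample titles.

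Counts were tested with edgeR 4.0.16 (filterByExpr, TMM factors, robust quasi-likelihood test, R 4.3.3) on the libraries compared, with Benjamini-Hochberg adjustment over all genes tested and calls at 0.05. The SE is the log2 fold change divided by the square root of F. CPM in the text use the library's total gene counts, without TMM factors. The fit was tested on simulated data. Alternatives were RLE factors, DESeq2 1.42.0, no filter, all libraries in 1 fit, the replicate block, each replicate left out, replicates 2 and 3 summed, and removal of the length trend (a loess fit with span 0.5 on genes outside the family, lengths from GENCODE M21). Library totals without factors, and the length trend outside the MT against WT comparisons, were added after seeing the data.

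Members and lists were chosen with earlier results of these data known. Named genes were the called members with the smallest p (up to 12 a direction) in MT against WT and in LK against Cd11b+, the member with the highest counts of each class, those with polyadenylated forms, and up to 4 genes of other lists; others (Hist1h2bm, Hist1h2ao, Hist1h3b, Slbp, Cenpa and members named by their 18-month share) were chosen after their values were seen. Depth, 26251822 to 68260809 gene counts, limits precision for members under about 1 CPM.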

Additional observations from a re-analysis of the deposited data

Results flagged for a closer look

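Hist1h1a, a linker histone gene, was at 209 CPM in 4-month WT replicate 4, apart from the other 3 WT libraries at 262 to 270.4 CPM; the gap was large for a group of 4. In 35 groups of 4 values checked this was the only one set apart, and chance sets apart about 1 in 20. The same library stands apart by sex-linked genes, and 4-month MT replicate 3, which does too, was at 217 CPM against 295 and 262 CPM. Hist1h2bm differed in its genotype effect between LK and Cd11b+ cells at 18 months by 0.84 on the log2 scale, with the values and limits given above.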

How the results depend on the processing

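For LK MT against WT, 19 histone genes were called. With the length trend removed 8 were called, all higher, with a median of 0.30; with replicates 2 and 3 summed 0 were, and leaving out one library gave 2 to 34, with medians of 0.46 to 0.69. Over 266 values of the 19 called genes under the alternatives, 134 stayed past the threshold, 132 did not and 0 changed sign. For 18-month Cd11b+ MT against WT (0 called), DESeq2 called 3, and 1 was called without the low-count filter and 1 with all 19 libraries in one fit, all higher; leaving out one library gave 0 to 14, with medians of 0.22 to 0.46. For 4-month MT against WT, 4 were called, all lower, without both MT replicate 3 and WT replicate 4. For LK against Cd11b+ WT, 3 were called higher with RLE factors, with DESeq2, with the replicate block and with the length trend removed. Leaving out one library gave 3 to 8 higher. The main fit called 24 lower, and the lower calls of these alternative fits are not given here. With library totals 17 were higher and 6 lower, the median was 0.23, and Hist1h2bn (0.13), Hist1h4n (0.072) and Hist3h2a (0.18) changed sign. For 18-month against 4-month WT, 0 were called higher with library totals (median -7.10) and with the replicate block, and the median was -6.59 with the length trend removed. For the interaction with cell type, 0 were called with library totals, with the replicate block and with the length trend removed (median 0.0091), and 0 to 3 on leaving out one library. For the interaction with age, DESeq2 called 2, both higher, and leaving out one library gave 0 to 2. The ratio of MT to WT summed histone level ranged from 1.30 to 1.42 in LK and from 1.19 to 1.39 in 18-month Cd11b+ cells on leaving out one library. The cause of these differences between fits was not tested. Shares of all genes called are given in the Results for some of these fits, and for the others are not given here.

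With the replicate block 0 histone genes were called in LK MT against WT (28 at an unadjusted p under 0.05), when 0.0213% of all genes were. How many of all genes had an unadjusted p under 0.05 in that fit is not given here. Same-numbered MT and WT libraries did not all deviate together: their correlations were -0.24, -0.04 and -0.05 in LK cells, 0.03, 0.03 and -0.01 in 18-month Cd11b+ cells and 0.28, 0.08 and -0.18 in 4-month cells, so the numbers were not taken as pairs.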
